A study of Mus musculus with 8 samples.

Results

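Matrix metalloproteinases, their tissue inhibitors (TIMPs) and other proteases that act on extracellular matrix were followed in cultured mouse macrophages that lack the Mediator kinases Cdk8 and Cdk19 or carry the control genotype. The set held 10 genes, chosen by symbol: 5 matrix metalloproteinases (Mmp8, Mmp12, Mmp13, Mmp14 and Mmp19), the inhibitors Timp2 and Timp3, the urokinase plasminogen activator Plau, its receptor Plaur, and the elastase Cela1. The choice was made with earlier results of these data known. All 10 symbols were found among the 34432 rows of the table, 1 row each, and all 10 passed the filter on low values (at least 10 in at least 4 libraries) that left 11675 genes. The macrophages had been grown from bone marrow, received no treatment and were collected on day 7. The 4 controls are labelled VAV-cre, and the 4 double knockouts CDK8CDK19KO, described by the series as Cdk8 flox/flox Vav-iCre Cdk19null. Both genotypes thus carry a Cre recombinase driven by Vav, a promoter of the whole blood lineage and not of macrophages alone. The labels give no age and do not say whether the libraries of a genotype came from separate animals or cultures. P-values here therefore speak only of the spread among the sequenced libraries, which may be technical.

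Matrix metalloproteinases are zinc-dependent endopeptidases that are made as inactive precursors and act on collagens, elastin and other matrix or surface proteins. TIMPs bind their active sites and block them. Urokinase, held at the cell surface by its receptor, converts plasminogen into plasmin, a serine protease that degrades fibrin and can activate several metalloproteinase precursors. Macrophages are a known source of the elastase Mmp12, of Mmp14 and of urokinase.

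Recovered read totals lay between 17856715 and 21353207 per library. Within the double knockouts, libraries 1 and 2 resembled each other, and so did 3 and 4 (chi-square per gene 8.03 and 9.11, against 19.3 to 26.5 across these pairs), so these 4 may not be independent. Controls were uneven too, from 9.32 between libraries 2 and 3 to 38.3 between libraries 1 and 4. The targeted genes were checked first: the controls had 1452 ± 189 for Cdk19 against 372.8 ± 25.8 in the double knockouts (SD, n = 4 each). Cdk8, whose floxed part cannot be checked from a gene total, was at 438.7 ± 24.5 and 347.3 ± 60.8. Cdk8 in double knockout 1, at 429, lay inside the control range of 408 to 466, so its total does not check the label. Of 8 macrophage markers 3 rose (Cd68, Cd14 and Mertk) and 5 fell, and they were abundant in both groups, with Cd68 at 16391 ± 879 in controls and 24307 ± 887 in double knockouts, Csf1r at 44395 ± 3620 and 25388 ± 1349 and Adgre1, a surface receptor that marks mature mouse macrophages, at 31285 ± 3946 and 24357 ± 2070. All 8 cell division markers were lower in the double knockout. By the test given below, 22.9% of all genes tested were higher and 23.8% lower. In bulk RNA fewer cells of a type cannot be told apart from less RNA per cell.

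The promoters of 5 of these genes are shown because the genes moved in different directions: Mmp13, Mmp12 and Mmp8 are neighbours on chromosome 9, Cela1 had the largest fold rise of the 10 genes, and Plaur fell. Each line is the 250 bases before the RefSeq gene start, 5′ to 3′ along the gene, in build GRCm38.p6, the patch level of mm10 used by RefSeq. For Mmp12 there were 2 such windows, and only the first listed was used. Capitals mark matches to 6 motifs, searched on both strands except the TATA box, which was searched on the gene's strand: AP-1 (TGANTCA), RUNX (TGTGGT), ETS (AGGAAG), E-box (CACGTG), C/EBP (TTGCNNAA) and TATA box (TATAAA).
Mmp13, chr9:7272264-7272513, plus strand: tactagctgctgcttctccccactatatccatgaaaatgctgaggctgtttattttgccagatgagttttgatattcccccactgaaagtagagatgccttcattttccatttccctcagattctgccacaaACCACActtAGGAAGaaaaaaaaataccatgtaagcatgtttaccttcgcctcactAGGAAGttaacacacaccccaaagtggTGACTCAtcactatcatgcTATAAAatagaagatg
Mmp12, chr9:7344147-7344396, plus strand: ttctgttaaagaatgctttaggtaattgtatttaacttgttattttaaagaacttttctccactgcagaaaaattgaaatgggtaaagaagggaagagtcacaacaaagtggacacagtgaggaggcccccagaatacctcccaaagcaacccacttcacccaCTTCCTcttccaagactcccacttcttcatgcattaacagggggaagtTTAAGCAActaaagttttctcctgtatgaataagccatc
Mmp8, chr9:7558179-7558428, plus strand: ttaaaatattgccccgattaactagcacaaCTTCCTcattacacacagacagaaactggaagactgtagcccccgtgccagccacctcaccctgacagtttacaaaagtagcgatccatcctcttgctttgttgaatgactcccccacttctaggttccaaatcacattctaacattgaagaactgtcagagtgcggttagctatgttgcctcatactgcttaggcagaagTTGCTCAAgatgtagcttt
Cela1, chr15:100687921-100688170, minus strand: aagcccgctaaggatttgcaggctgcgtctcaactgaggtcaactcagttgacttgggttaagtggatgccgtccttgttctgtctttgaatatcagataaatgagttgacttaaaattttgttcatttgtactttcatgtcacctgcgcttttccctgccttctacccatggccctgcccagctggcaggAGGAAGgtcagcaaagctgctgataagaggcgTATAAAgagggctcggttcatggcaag
Plaur, chr7:24462233-24462482, plus strand: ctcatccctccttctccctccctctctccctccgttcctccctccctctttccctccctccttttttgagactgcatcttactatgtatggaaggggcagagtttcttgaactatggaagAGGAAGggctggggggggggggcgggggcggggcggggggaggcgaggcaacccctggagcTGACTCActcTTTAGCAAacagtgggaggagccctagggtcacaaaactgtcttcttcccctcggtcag

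Promoter sequences matched 8 of the 10 genes; Plau and Mmp19 had none in the RefSeq table. The AP-1 motif was found in 2 of the 8, Mmp13 (TGACTCA, first base 35 before the start, written as -35) and Plaur (TGACTCA, at -69), and in 6.75% of 32851 mouse promoter windows of the same length. These 2 genes moved in opposite directions. RUNX letters lay in Mmp13 (at -118) and Mmp14, and in 14.0% of all windows. The TATA box lay in Mmp13 (at -16) and Cela1 (at -27), and in 7.59% of windows. C/EBP letters lay in Mmp12 (at -39), Mmp8 (at -19) and Plaur (at -59), and in 9.56% of windows. ETS letters were present in 7 of the 8 and in 29.5% of windows, the E-box in none of the 8 and in 6.02%. The motifs did not overlap each other in these windows. These matches describe letters only.

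Of the 10 genes, 5 rose and 4 fell in the double knockout, and Timp3 did not pass the test (limma on log2(value + 1), Benjamini-Hochberg adjusted p under 0.05 over 11675 genes). Among all genes tested, 46.6% passed in either direction, 22.9% higher and 23.8% lower, so a call as such is common in this comparison. Without control replicate 2 the 4 that fell became 2, Plau and Plaur. Rises of at least 2-fold were found for 4 of the 10 genes (Mmp12, Mmp13, Timp2 and Cela1) and for 3.68% of all genes. Falls of at least 2-fold were found for 2 (Plau and Plaur) and for 7.2% of all genes. The groups did not overlap for 8 of the 10, 5 higher and 3 lower, where 42.9% of all genes had groups without overlap (21.2% higher and 21.7% lower). The median log2 fold change was 0.33 over the 10 genes and 0.01 over all genes tested. Because the genes were chosen with earlier results of these data known, these counts beside the shares are a description only. Values below are normalized read counts, given for libraries 1 to 4 in order, with mean ± SD (n = 4 per group).

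**Figure D1:**
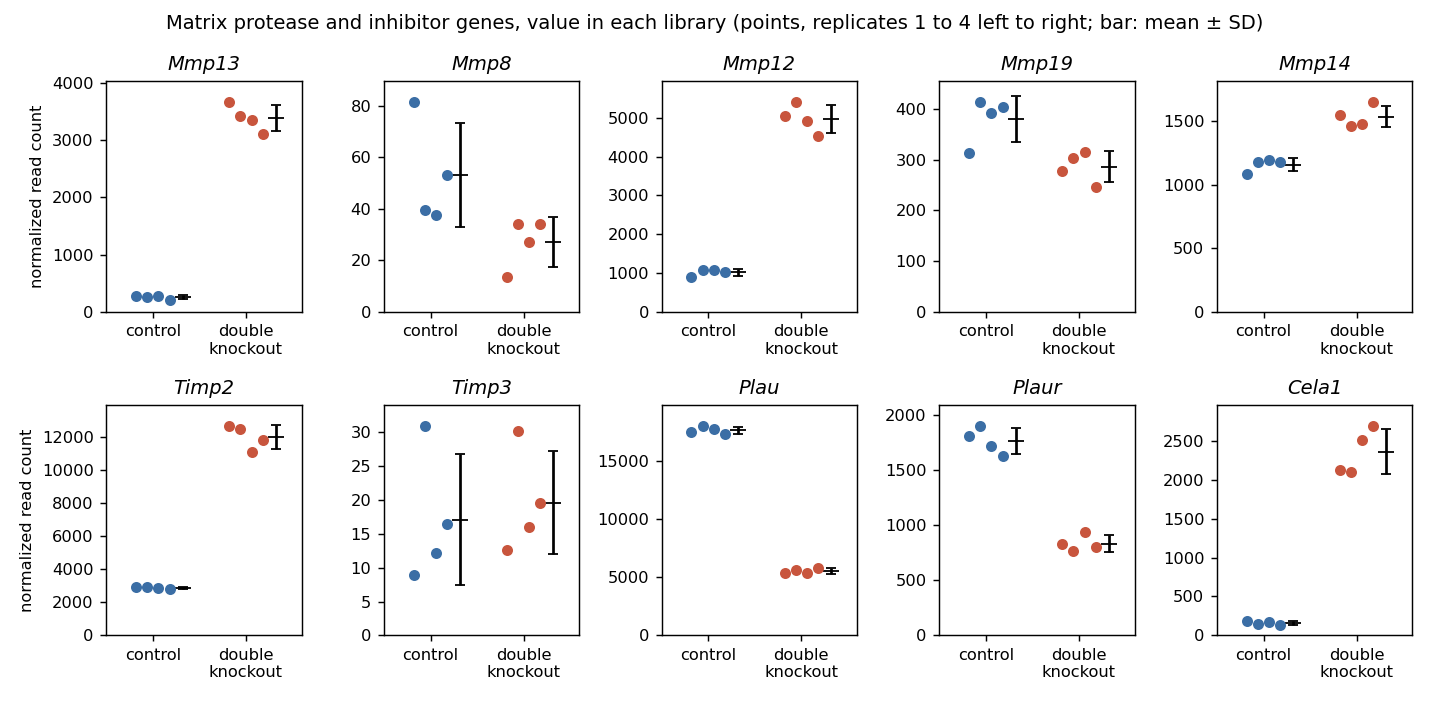
Normalized read count of each of the 10 genes in each library; points are replicates 1 to 4 from left to right, and the bar beside them is mean ± SD. All double knockout points lie above all control points for Mmp13, Mmp12, Mmp14, Timp2 and Cela1 and below them for Plau, Plaur and Mmp8, and the groups overlap for Timp3 and Mmp19.

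Collagenases moved apart. Mmp13, which cleaves fibrillar collagen and is the main interstitial collagenase of rodents, lies on chromosome 9 (ENSMUSG00000050578, 7272514 to 7283331, plus strand, mm10). It stood at 274, 259, 275 and 203 in controls and at 3666, 3428, 3360 and 3109 in double knockouts. The groups lay far apart, with control 4 lowest and double knockout 4 lowest of its group, a 13.4-fold rise of the mean from 252.8 ± 34.3 to 3391 ± 229 (log2 3.75, SE 0.10, adjusted p = 4.23e-10). Mmp8, the collagenase stored in neutrophil granules (ENSMUSG00000005800, chromosome 9, 7558456 to 7568485), had few reads, at 81.6, 39.6, 37.7 and 53.0 in controls and at 13.6, 34.2, 27.0 and 34.1 in double knockouts. The groups were separate only by a narrow gap, between control 3 and double knockouts 2 and 4. Its fall of 0.95 on the log2 scale (SE 0.36) passed the limma test narrowly (adjusted p = 0.0470). The call was lost without control replicates 1, 2 or 4 (log2 -0.72, -1.06 and -0.93, adjusted p = 0.135, 0.0517 and 0.0855), and also when double knockout 1 or 3 was left out (log2 -0.66 and -0.97, adjusted p = 0.117 and 0.0736).

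Mmp8 is itself one of the 10 neutrophil markers listed. All 9 that could be tested, Mmp8, Mmp9 and Elane among them, were called lower in the double knockout, where 23.8% of all genes tested were. Of the 9, 2 (Camp and Mmp9) met the filter through the controls, with 1 double knockout library at 10 or more. These 2 could enter the count only by being high in controls. The summed level of the 10 listed, Mmp8 included, ran from 2000 to 3566 in controls and from 464 to 773 in double knockouts. S100a9, a calcium-binding protein of neutrophils and monocytes, stood at 977, 655, 594 and 811 in controls and at 114, 151, 145 and 150 in double knockouts. Control 1 and then control 4 were highest, control 3 lowest and double knockout 1 lowest of its group for both Mmp8 and S100a9. S100a8 had this order too. The order did not hold in full for Ltf, Camp, Ngp, Elane, Mpo, Mmp9 and Retnlg. For example, Ltf was lowest in control 2 and double knockout 4, and Ngp and Elane were lowest in double knockout 3. The part of these markers in the Mmp8 value was not tested.

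Among the other secreted metalloproteinases, Mmp12 rose and Mmp19 fell slightly. Mmp12, the macrophage metalloelastase (ENSMUSG00000049723, chromosome 9, 7344381 to 7369499, plus strand), stood at 893, 1063, 1088 and 1029 in controls and at 5055, 5406, 4914 and 4519 in double knockouts. All double knockouts were far above all controls, control 1 was the lowest library, and the mean rose 4.88-fold from 1018 ± 86.7 to 4973 ± 367 (log2 2.29, SE 0.08, adjusted p = 1.19e-09). The annotation lets Mmp12 overlap Mmp1b on the opposite strand, but Mmp1b had no read in any library. Mmp19, a secreted metalloproteinase of broad substrate range (ENSMUSG00000025355, chromosome 10, 128790910 to 128800824), stood at 314, 414, 392 and 404 in controls and at 279, 304, 316 and 247 in double knockouts. Control 1 lay inside the double knockout range, and the other controls lay above it. The fall of 0.41 on the log2 scale (SE 0.12, adjusted p = 0.0185 with limma) was lost without control replicate 2 (log2 -0.37, adjusted p = 0.0539), without double knockout replicate 4 (log2 -0.34, adjusted p = 0.0540), and with the double knockouts averaged in pairs (adjusted p = 0.0520). Tmem198b overlaps Mmp19 on the other strand and stood at 174.7 ± 15.4 and 225.5 ± 18.7. Whether reads were counted by strand is not stated, so reads of the 2 genes cannot be told apart where they overlap.

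The membrane-anchored metalloproteinase Mmp14 (ENSMUSG00000000957, MT1-MMP, chromosome 14, 54431612 to 54445364) rose by much less than Mmp12 and Mmp13. Its values were 1079, 1180, 1191 and 1179 in controls and 1550, 1462, 1476 and 1649 in double knockouts. Control 1 stood below the other 3 controls, which lay close together, and all double knockouts were above all controls. The mean rose 1.33-fold from 1157 ± 52.5 to 1535 ± 85.4 (log2 0.41, SE 0.07, adjusted p = 0.000510). Furin, a proprotein convertase that activates the Mmp14 precursor, stood at 3009 ± 409 and 2442 ± 206 with overlapping groups. Its fall of 0.29 on the log2 scale (SE 0.10, adjusted p = 0.0293 with limma) was lost when any of control replicates 2, 3 or 4 or double knockout replicates 3 or 4 was left out (adjusted p = 0.0661, 0.0677, 0.0690, 0.0725 and 0.0849).

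Of the inhibitors, Timp2 rose and Timp3 had few reads. Timp2, which inhibits metalloproteinases and, bound to Mmp14, also takes part in activating the Mmp2 precursor, lies on chromosome 11 (ENSMUSG00000017466, 118301069 to 118355740, minus strand). It was at 2921, 2954, 2890 and 2813 in controls and at 12673, 12494, 11058 and 11801 in double knockouts. Controls lay close together, and double knockouts 1 and 2 were above 3 and 4. The mean rose 4.15-fold from 2894 ± 60.4 to 12006 ± 736 (log2 2.05, SE 0.06, adjusted p = 4.23e-10). Cep295nl, annotated within the Timp2 locus on the same strand, reached at most 23.1 in any library. Timp3, the matrix-bound inhibitor that also blocks Adam17 (ENSMUSG00000020044, chromosome 10, 86300372 to 86349506), stood at 8.84, 30.9, 12.2 and 16.4 in controls and at 12.6, 30.2, 16.0 and 19.5 in double knockouts. These groups overlapped fully (log2 0.26, SE 0.44, adjusted p = 0.664), and with 69 and 79 recovered reads over the libraries of each group a difference of the size seen for Mmp14 was not detectable at this depth.

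Urokinase and its receptor fell together. Plau (ENSMUSG00000021822, chromosome 14, 20836660 to 20843385, plus strand) stood at 17442, 18024, 17728 and 17294 in controls and at 5384, 5621, 5325 and 5824 in double knockouts. Both groups were tight, and the mean fell from 17622 ± 323 to 5538 ± 229, a level 3.18-fold lower (log2 -1.67, SE 0.05, adjusted p = 7.17e-10). Plaur (ENSMUSG00000046223, chromosome 7, 24462484 to 24475968), the membrane-anchored receptor that holds urokinase, stood at 1812, 1904, 1721 and 1628 in controls. In double knockouts it stood at 826, 763, 942 and 799, all below every control. Its mean fell from 1766 ± 119 to 832.6 ± 77.6, 2.12-fold lower (log2 -1.09, SE 0.08, adjusted p = 8.05e-07).

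Cela1 had the largest fold rise of the 10 genes. It encodes a chymotrypsin-like elastase, a serine protease known from the exocrine pancreas and found in other tissues, and lies on chromosome 15 (ENSMUSG00000023031, 100674421 to 100687921, minus strand). Its values were 185, 151, 171 and 134 in controls and 2129, 2102, 2513 and 2692 in double knockouts. Double knockouts 3 and 4 were above 1 and 2, the reverse of the order seen for Timp2, and the groups lay far apart. The mean rose 14.7-fold from 160.1 ± 22.3 to 2359 ± 291 (log2 3.87, SE 0.12, adjusted p = 7.17e-10). None of 8 markers of pancreatic acinar cells, including the related elastases Cela2a and Cela3b, had a read in any of the 8 libraries, where a count of 0 allows up to 3 reads per library (counting error only).

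**Figure D2:**
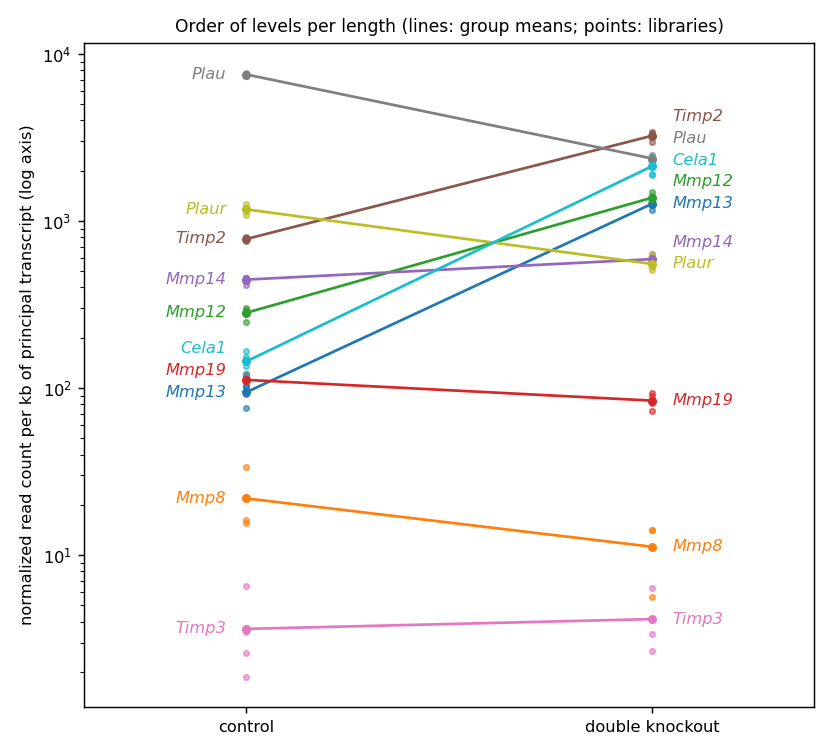
Normalized read count per kb of the principal transcript (log axis) in controls and double knockouts; lines join the group means and small points are libraries. Plau leads in controls and Timp2 in double knockouts, and Cela1, Mmp12 and Mmp13 pass Plaur and Mmp14.

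To compare levels between genes, values were divided by the length of each gene's principal transcript in GENCODE M21. On this per-kb scale the controls were led by Plau (7524 ± 138 per kb), followed by Plaur (1173 ± 78.7), Timp2 (780.4 ± 16.3), Mmp14 (445.8 ± 20.2) and Mmp12 (282.3 ± 24.0). Next came Cela1 (144.5 ± 20.1), Mmp19 (111.9 ± 13.4) and Mmp13 (94.6 ± 12.8), where neighbours in the order had overlapping libraries, then Mmp8 (21.9 ± 8.34) and Timp3 (3.62 ± 2.06). In double knockouts Timp2 led (3237 ± 198 per kb), above Plau (2365 ± 97.8) and Cela1 (2129 ± 262), whose libraries overlapped each other. Mmp12 (1379 ± 102) and Mmp13 (1269 ± 85.8) overlapped, as did Mmp14 (591.1 ± 32.9) and Plaur (552.9 ± 51.5), and Mmp19 (84.1 ± 9.02), Mmp8 (11.2 ± 3.995) and Timp3 (4.14 ± 1.61) came last. The order depends on the length used: over all annotated exons Timp2 precedes Plaur, and Mmp19 and Mmp13 precede Cela1, in controls. In double knockouts Mmp13 and Cela1 then precede Mmp12, with Mmp13 first, and Plaur precedes Mmp14.

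Ratios between members on this per-kb scale show how proteases and inhibitors moved relative to each other, as values with no test. The size of a ratio depends on the lengths used. Its fold change between genotypes does not, since the same lengths divide both groups. The ratio of Mmp13 to Timp2 was 0.130, 0.122, 0.132 and 0.0999 in controls and 0.401, 0.381, 0.422 and 0.366 in double knockouts. Mmp13 thus gained on Timp2 in every double knockout library. The ratio of Mmp12 to Timp2 went from 0.362 ± 0.0324 to 0.426 ± 0.0295, with no overlap but a narrow gap between 0.387 in control 3 and 0.394 in double knockout 4. The ratio of Mmp14 to Timp2 went the other way, from 0.572 ± 0.0314 to 0.183 ± 0.0147. For Plau to Plaur it was 6.43 ± 0.353 in controls and 4.31 ± 0.515 in double knockouts, also without overlap.

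The metalloproteinase family as a whole was read mostly through a few of its genes. Of 23 listed mouse family members, 11 passed the filter, 6 had few reads, and 6 had no read in any library (Mmp1a, Mmp1b, Mmp3, Mmp7, Mmp20 and Mmp21). Of the 11 tested, 6 rose, 3 fell and 2 (Mmp11 and Mmp25) did not pass. Without control replicate 2 only 1, Mmp9, fell. Over all genes tested 22.9% rose and 23.8% fell, and the counts of the other lists below stand beside the same shares. Of the 11, 3 met the filter mainly or wholly through 1 group: Mmp10 through the double knockouts, and Mmp9 and Mmp11 with only 1 double knockout library at 10 or more. Mmp10 and Mmp9 could therefore enter the counts only by being high in 1 group, and their values are given as a description. Besides Mmp12, Mmp13 and Mmp14, the 6 were Mmp10 (stromelysin 2), Mmp27 and Mmp2 (gelatinase A). Mmp10 went from 0.983, 2.90, 1.11 and 3.86 in controls to 111, 110, 50.02 and 84.8 in double knockouts, with 9 recovered reads over the 4 controls and 360 over the 4 double knockouts. Mmp27 rose 9.84-fold from 45.9 ± 11.2 to 451.3 ± 37.1 (adjusted p = 3.16e-08), and Mmp2 rose 2.46-fold from 24.7 ± 7.96 to 60.7 ± 16.4 (adjusted p = 0.00466), both by limma. Mmp9 (gelatinase B), a gene of neutrophil granules and of osteoclasts, had a mean of 70.1 ± 34.1 in controls and 7.21 ± 4.67 in double knockouts. Its controls, at 111, 37.7, 46.6 and 84.9, were highest in libraries 1 and 4. Double knockout 1 was lowest of all at 0.971, as for Mmp8 and S100a9 but not for all neutrophil markers.

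**Figure D3:**
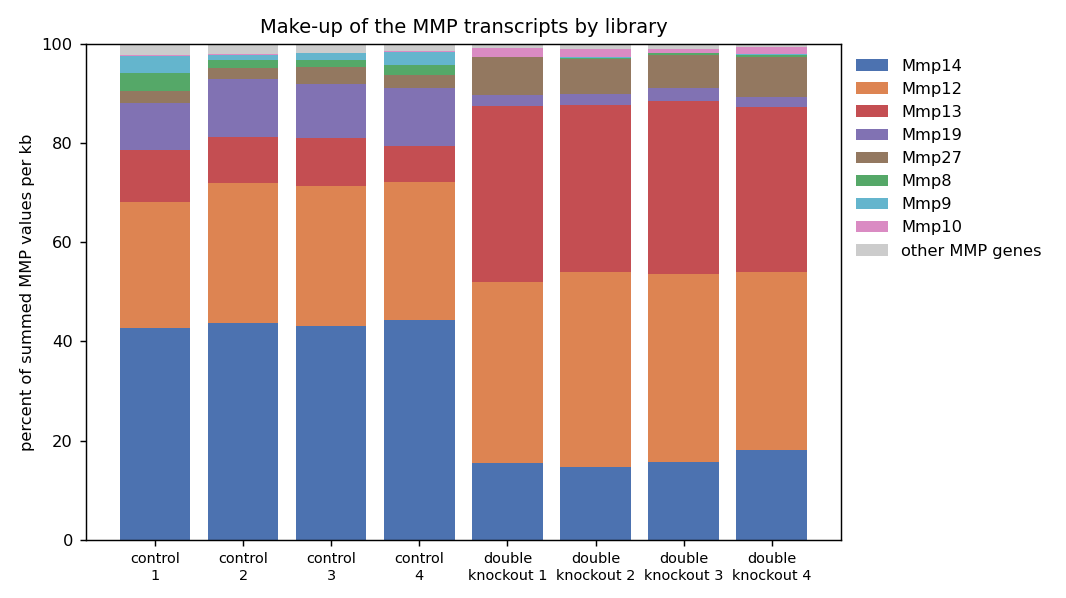
Share of each gene in the summed metalloproteinase values per kb of principal transcript, for each of the 8 libraries. The shares depend on this choice of length. Mmp14 holds 42.7% to 44.3% in controls, and in double knockouts Mmp12 holds 35.8% to 39.3% and Mmp13 33.2% to 35.6%.

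The make-up of the summed metalloproteinase level is given as values with no test. The sum over the family was 1026 ± 39.0 per kb in controls and 3692 ± 169 in double knockouts. In controls Mmp14 took 43.4% ± 0.693, Mmp12 27.5% ± 1.37, Mmp19 10.9% ± 1.02 and Mmp13 9.22% ± 1.33. In double knockouts Mmp12 took 37.3% ± 1.54 and Mmp13 34.3% ± 1.11, while Mmp14 took 16.1% ± 1.47 and Mmp19 2.28% ± 0.230. Mmp27 went from 2.68% ± 0.580 to 7.36% ± 0.656. The shares depend on the length used. Over all annotated exons Mmp12 has 7.237 kb and Mmp14 5.96 kb, against 3.607 and 2.596 kb for their principal transcripts, while Mmp13 stays at 2.673 kb. On that length Mmp13 precedes Mmp12 in double knockouts. These shares compare transcript levels, not protein or enzyme activity.

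**Figure D4:**
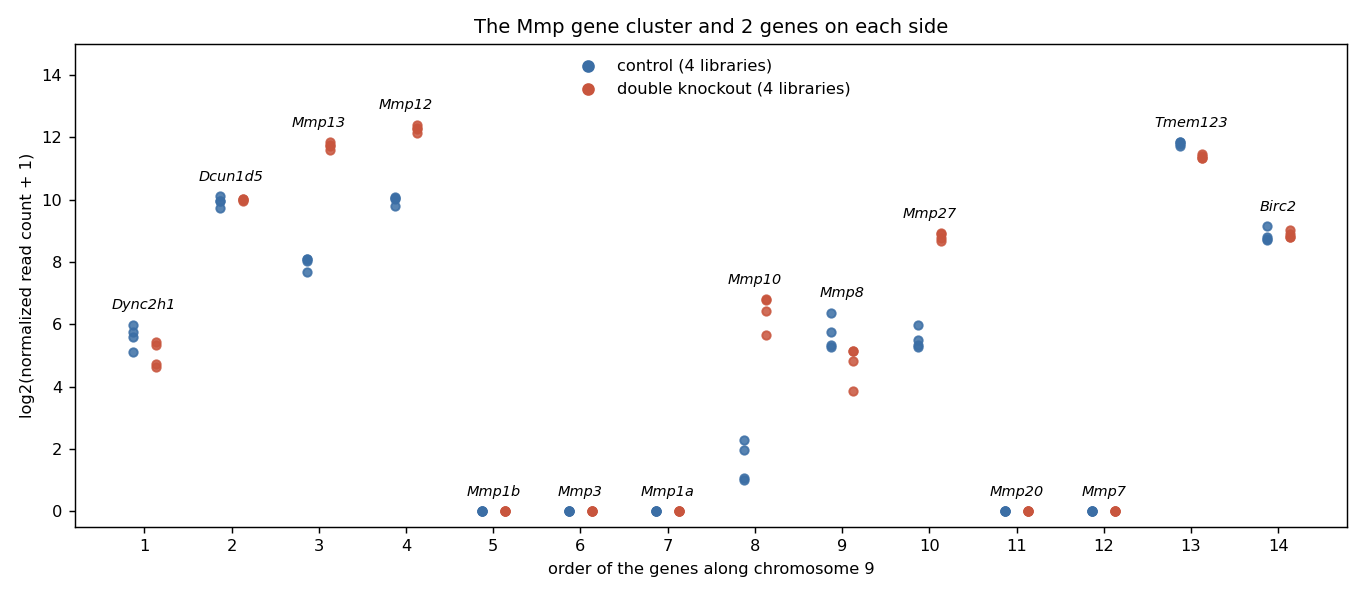
Log2(normalized read count + 1) in each library for the Mmp genes in their order along chromosome 9, with 2 genes on each side; points are libraries. Mmp13, Mmp12, Mmp10 and Mmp27 are higher in all double knockouts, Mmp8 between Mmp10 and Mmp27 is lower, and 5 Mmp genes have no read.

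Of the 10 genes, 3 belong to a cluster of 10 Mmp genes within 427.1 kb of chromosome 9 (7272514 to 7699585, mm10). In this cluster 5 genes were read, and 4 of them were called higher: Mmp13, Mmp12, Mmp27 and Mmp10, the last of which met the filter only through the double knockouts. Mmp8, which ends 2.91 kb before the start of Mmp27, was the only one of the 5 that fell, and its call rested on single libraries. Among the neighbours, the window before Mmp10 held AP-1 letters (TGAGTCA, at -63), C/EBP letters (at -241) and a TATA box (at -29), and that before Mmp27 held RUNX (at -62) and C/EBP letters (at -57) that share 1 base. The 5 unread genes (Mmp1b, Mmp3, Mmp1a, Mmp20 and Mmp7) lie among the read ones and beyond Mmp27. Outside the cluster, Dcun1d5, the nearest gene before Mmp13, stood at 985.3 ± 99.2 and 1021 ± 26.5 (adjusted p = 0.607 with limma). On the far side Tmem123 fell from 3578 ± 127 to 2682 ± 104 (log2 -0.42, adjusted p = 9.91e-05), and Birc2, next to it, stood at 463.3 ± 68.6 and 471.1 ± 37.6 (adjusted p = 0.845).

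**Figure D5:**
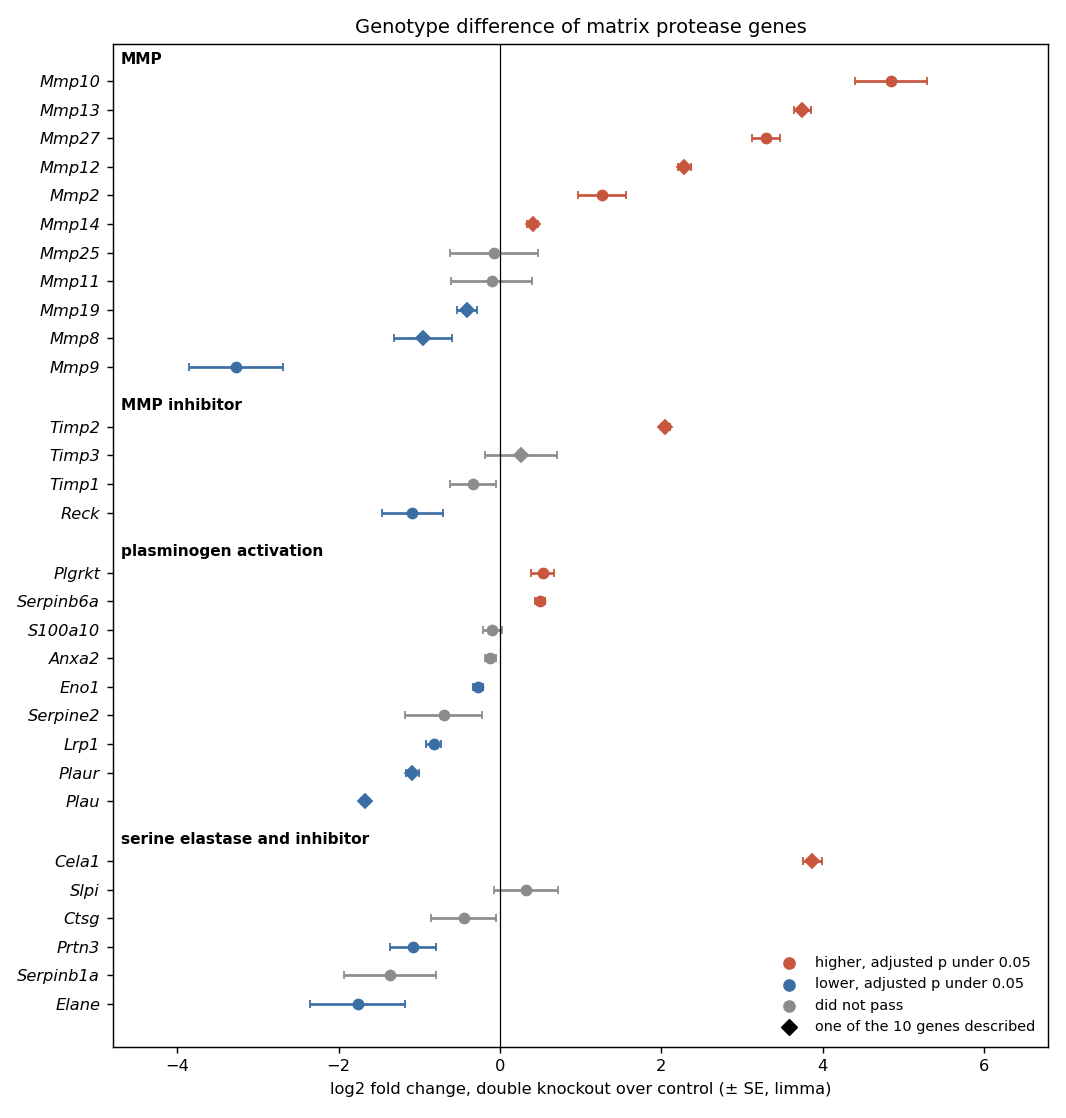
Log2 fold change (double knockout over control, ± SE, limma) of the tested genes in 4 lists: metalloproteinases, their inhibitors, plasminogen activation, and serine elastases with their inhibitors. Diamonds are the 10 genes described; Plau, at -1.67, is the lowest of the plasminogen genes and Cela1, at 3.87, the highest of the elastase list.

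Of 7 listed metalloproteinase inhibitors 4 were tested, 1 (Timp2) rose and 1 (Reck) fell (median log2 -0.04). Reck, a membrane-anchored inhibitor, fell from 43.3 ± 12.3 to 21.2 ± 10.8 with overlapping groups (log2 -1.09, SE 0.38, adjusted p = 0.0332 with limma). That call was lost when any of control replicates 2, 3 or 4 or double knockout replicates 3 or 4 was left out (adjusted p = 0.0530, 0.0674, 0.0930, 0.0846 and 0.0744) and with the replicate number as a block (adjusted p = 0.0683). Timp1 stood at 51.2 ± 6.70 and 42.6 ± 17.6 (adjusted p = 0.370 with limma).

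Of 13 listed genes of plasminogen activation, 9 were tested, 2 rose and 4 fell, Plau and Plaur among them. Calls are common here, with 22.9% of all genes tested higher and 23.8% lower. The median over the 9 was -0.27 on the log2 scale, beside 0.01 over all genes. Lrp1, an endocytic receptor that takes part in clearing urokinase from the cell surface, fell from 21937 ± 2324 to 12428 ± 1373 (log2 -0.82, SE 0.09, adjusted p = 2.17e-05). Serpinb6a, an intracellular serine protease inhibitor, rose 1.41-fold from 7403 ± 288 to 10446 ± 433 (adjusted p = 2.13e-05), by the same limma fit. Plasminogen itself (Plg) had no read in any library, and the tissue-type activator Plat did not pass the filter.

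Cela1 was the only riser among 6 tested serine elastases and inhibitors, whose median was -0.77 on the log2 scale. Of these, 2 fell: Prtn3 (proteinase 3, 73.2 ± 16.6 to 34.8 ± 10.96, adjusted p = 0.00850 with limma) and Elane (neutrophil elastase, 40.6 ± 10.53 to 15.9 ± 16.1, adjusted p = 0.0281). The call on Elane was lost with edgeR and DESeq2 on recovered reads (adjusted p = 0.0763 and 0.0551) and when control replicates 1, 2 or 4 (adjusted p = 0.0680, 0.0516 and 0.0506) or double knockout replicates 3 or 4 (adjusted p = 0.0629 and 0.0674) were left out in turn. Prtn3 and Elane encode proteases of neutrophil granules, and Elane is itself one of the neutrophil markers summed beside Mmp8. The part of such cells in the Prtn3 value was not tested.

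Of 14 listed disintegrin metalloproteinases of the ADAM and ADAMTS types, 8 were tested, 1 was called higher and 4 fell. Among all genes tested 22.9% were higher and 23.8% lower. The shedding proteases Adam10 (9032 ± 1087 to 4612 ± 340, log2 -0.96, adjusted p = 3.17e-06 with limma) and Adam17 (5927 ± 597 to 3304 ± 318, log2 -0.84, adjusted p = 9.81e-06), which releases TNF from the membrane, both fell. Adam8 fell from 55918 ± 3212 to 44335 ± 2288 (log2 -0.33, adjusted p = 0.00101). The gene called higher was Adam19, at 9.83, 1.93, 16.65 and 5.79 in controls and 46.6, 76.4, 67.0 and 73.1 in double knockouts; with 1 control at 10 or more, it met the filter through the group where it is high. Of 8 listed proprotein convertases and other precursor activators, 4 were tested, none rose and Furin fell; without control replicate 2 Hpn rose (adjusted p = 0.00776 with limma), and without double knockout replicate 1 Pcsk7 fell as well (adjusted p = 0.0443).

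Transcripts of matrix proteins and their receptors moved both ways. Of 18 matrix substrates 12 were tested, 2 rose and 6 were called lower; without control replicates 2, 3 or 4 that number was 3, 2 and 3. Of the 12, 4 met the filter through the controls, with at most 1 double knockout library at 10 or more, and 2 of these, Col4a2 and Lamb2, are among the 6. Spp1 (osteopontin) rose 3.39-fold to 60823 ± 2349 and Thbs1 (thrombospondin 1) rose 4.41-fold to 3107 ± 195. Fn1 (fibronectin) fell from 387.3 ± 163 to 48.8 ± 19.8, where control 2 stood at 628 against 267 to 327 in the others. Col4a2, a basement membrane collagen, had a mean of 74.2 ± 47.5 in controls and 5.94 ± 2.01 in double knockouts, none of which reached 10. Of 12 matrix uptake and adhesion receptors 11 were tested, 2 rose and 8 fell (median log2 -0.36). Both lists stand beside 22.9% higher and 23.8% lower over all genes tested. Itgb3, the integrin chain of the vitronectin receptor, rose 10.6-fold from 38.2 ± 7.65 to 405.7 ± 42.8, whereas Cd44, which binds hyaluronan and can dock Mmp9, fell 2.01-fold from 11417 ± 1221 to 5675 ± 436. Among Spp1, Thbs1, Fn1, Itgb3 and Cd44, Fn1 had the highest adjusted p with limma, 2.92e-05.

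Markers of other cell types are given beside these results, and their part in them was not tested. Their counts stand beside 22.9% higher and 23.8% lower over all genes tested. Of 8 monocyte markers 5 fell and none rose, and their summed level ran from 15428 to 16152 in controls and from 2664 to 3309 in double knockouts. Fibroblast and stromal markers, 9 in all, had 2 tested genes, Col1a1 and Col1a2, which are matrix substrates too, of which Col1a2 was lower. They had Lum at 0 in every library, and sums of 241 to 338 and 107 to 293. Osteoclast markers summed to 516 to 616 in controls and 662 to 757 in double knockouts, with 2 higher and 2 lower of 5 tested, 1 of the lower being Mmp9, and Calcr had no read. Dendritic cell markers summed to 299 to 395 and 468 to 563, of which Itgax made up most. Mast cell markers reached at most 44.4 in sum in any library, and Cma1, Mcpt4 and Tpsb2 had no read.

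Profiles most like those of the strongest risers were sought among 10315 genes with a mean of at least 50, by Euclidean distance of log2 values centred on each gene's own mean over the 8 libraries. For Mmp13 the nearest were Cela1 (distance 0.520), Ms4a4a (0.554) and Npl (0.594). For Cela1 they were Mmp13, Lrmda (0.648) and Npl (0.738). Mmp12 lay nearest to Mfge8 (0.291), Fcgr2b (0.313) and Cd83 (0.329), which rose by 2.18, 2.44 and 2.45 on the log2 scale. With 2 groups this distance reflects mainly the size of the genotype difference.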

How the data were processed

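Polyadenylated RNA of 8 macrophage libraries was sequenced, 4 per genotype. Per the submitters' processing notes, the authors used Salmon 1.4.0, DESeq2 and the mm10 build. How transcript estimates became gene values, which annotation served and whether strand was used are not stated in the labels. The deposited values are a signal, normalized counts in 1 column per library: every value is a whole number over the library's size factor (0.901 to 1.04). Undoing this gave whole numbers for 100% of values within 0.01. These are called recovered reads here, but with Salmon they may be rounded estimates of reads per gene. They served for depth and as input to count models, which were alternatives.

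The filter kept 11675 genes that reached 10 in 4 or more libraries. Their log2(value + 1) was fitted in R 4.3.3 with limma 3.58.1 (trend and robust options, genotype as the only term, two-sided), adjusted over all of them by Benjamini-Hochberg at 0.05. Fold changes on this scale understate changes of low genes; folds given as such are ratios of group means. For each tested gene named, an exact permutation test over the 70 regroupings can give no p below 0.0286. Lists are described by counts and medians, with no set test. Members and lists were chosen with earlier results of these data known. All 10 members are named, with every tested gene of the metalloproteinase and inhibitor lists, up to 4 genes with the smallest adjusted p from other lists, the genes of the cluster and 3 like profiles for each of 3 members; the genes flanking the cluster, Tmem198b, Cep295nl, Lamb2, Plg, Plat and the markers were added for context, after their values were seen. One gene of the plasminogen list is not reported here and was left out of that list. Alternatives were pseudocounts, filters, scaling, edgeR 4.0.16, DESeq2 1.42.0, a replicate block, averaged pairs and each library left out. The limma pipeline was tested on simulated reads in which 200 genes changed, whereas 46.6% of genes tested passed here. That simulation therefore does not give the error rates of this comparison.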

Additional observations from a re-analysis of the deposited data

Results flagged for a closer look

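In groups of 4 libraries, a value was singled out when its distance to the nearest other library took up most of the group's range (Dixon's test); 90 groups of the named genes were examined and 7 values stood apart, where chance alone singles out about 1 in 20. Among the 10 genes described, this was Mmp14 in control 1, at 1079, below the other controls. In the wider lists it was Adam8 in control 1 (51152, below the others), Fn1 in control 2 (628.4, above), Serpinb1a in control 3 (74.35, above), Lrp1 in double knockout 1 (14476, above), Serpinb6a in double knockout 2 (11093, above) and Col4a2 in double knockout 4 (2.923, below). All 7 are given as values, with no cause tested.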

How the results depend on the processing

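Under 19 other settings, Mmp12, Mmp13, Mmp14, Timp2, Plau, Plaur and Cela1 kept their direction and their call throughout, and Timp3 passed in none of the 18 that could fit it. Mmp19 missed the threshold with the double knockouts averaged in pairs (log2 -0.41, limma adjusted p = 0.0520); with each library left out in turn it ran from -0.50 to -0.34. Mmp8 missed it at -0.95 with no filter on low values (0.0641), at -0.95 without the trend and robust options (0.0564), at -0.83 with quantile normalization (0.0766), and at -0.95 both with the replicate block (0.100) and with averaged pairs (0.0705). Left-out libraries gave -1.09 to -0.66 for Mmp8, which did not pass the filter at 50. The causes were not tested.

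The replicate block gave 2215 genes higher and 2434 lower; same-numbered libraries did not deviate together (correlations of -0.05, 0.03, -0.04 and -0.04), so the numbers were taken as names only. Among the 10 genes the block ended the call on Mmp8 and no other. Averaging the paired double knockouts gave 1903 and 2247.

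Counts by list moved as follows. The members that fell numbered 2 with averaged pairs and 2 to 4 with libraries left out. The family members that fell numbered 1 with the filter at 50 and with averaged pairs, and 1 to 3 with libraries left out. No inhibitor (0) fell with the filter at 50, quantile normalization, the replicate block or averaged pairs, and 0 to 1 with libraries left out. No ADAM gene (0) rose with the filter at 50, which leaves Adam19 untested. The elastase list had 1 fall with the filter at 50, without trend and robust options, with edgeR and with DESeq2, and 1 to 3 with libraries left out. Convertases had 1 rise with quantile normalization and 0 to 1 with libraries left out. They had 0 falls without trend and robust options, with the replicate block and with averaged pairs, and 0 to 2 with libraries left out. Falls among matrix substrates ranged from 2 to 8 with libraries left out.

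Genes that did not pass changed sign in places. Mmp11 stood at 0.0078 with quantile normalization and at -0.36 to 0.10 with libraries left out. Mmp25 stood at 0.016 with pseudocount 10, at 0.067 with quantile normalization, at 0.15 with edgeR, at 0.16 with DESeq2 and at -0.39 to 0.27 with libraries left out. St14 stood at 0.056 with quantile normalization. Left-out libraries gave -0.0066 to 0.11 for Dcun1d5 and -0.020 to 0.13 for Birc2. Low reads limit Mmp8, Timp3, Mmp10, Mmp11 and Mmp25.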
